A study of Mus musculus with 10 samples.

Results

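The genes described here are 10 members of the Toll-like receptor system: the surface receptors Tlr2 and Tlr4, the lipopolysaccharide co-receptors Cd14 and Ly96, the endosomal receptors Tlr3, Tlr7, Tlr8, Tlr9 and Tlr13, and the adaptor Myd88. They were chosen by symbol from a deposited set of 55487 gene rows, where each of these symbols occurs once, and all 10 passed the filter on low values that left 13930 genes. The libraries come from MC38 tumours and from a sort for CD8+ T cells; MC38 is a mouse colon carcinoma line, injected at 8 weeks of age, and tumours were collected after 18 days. Of the 10 mice, 5 carried wild-type Ptpn22 (WT), which encodes the phosphatase Pep, and 5 carried the Ser452-to-alanine form (S452A). Each mouse gave 1 library, every mouse received the tumour cells, and the labels name no cell type to which the mutation is limited.

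Toll-like receptors bind molecules of microbes and of damaged cells through leucine-rich repeats and signal through a cytoplasmic TIR domain. Surface receptors meet lipids and proteins of the microbial envelope, whereas endosomal receptors meet nucleic acids after uptake, and most of the family signals through Myd88 to NF-kB. Macrophages, dendritic cells and B cells are their best known sites of expression, and in tumours they are studied mostly in myeloid cells.

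The libraries held little T cell RNA. All 15 T cell markers reached 1 TPM on average (transcript abundance scaled to length and to a fixed total), but their sum was 37.4 to 208 TPM in WT and 33.7 to 241 TPM in S452A. The 12 macrophage markers summed to 16370 to 23174 TPM in WT and 17156 to 21602 TPM in S452A. For the 6 monocyte markers the sum was 561 to 1200 TPM in WT and 617 to 1542 TPM in S452A. The receptor levels below are therefore levels in RNA of this mixture, in which fewer cells of a type and less RNA per cell cannot be told apart. Fibroblast markers summed to 174 to 329 TPM in WT and 77.2 to 232 TPM in S452A, and all 9 of them reached 1 TPM. Depth is unknown from TPM, and the count of genes at 1 TPM or more was 13677 to 14388 per library.

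Promoter sequences are shown for 4 members: Tlr2, the receptor with the highest level, Tlr3, with the largest difference between genotypes, Tlr9, with the widest spread between mice, and Myd88, with the narrowest. They come from RefSeq (build GRCm38.p6), whose table held 6 of the 10 members, each as 300 bases from 250 before to 50 after the start site. Only bases before the start and outside any annotated exon are printed, 5′ to 3′ on the gene's own strand. Capitals mark letters that match a searched motif on either strand.
Tlr2: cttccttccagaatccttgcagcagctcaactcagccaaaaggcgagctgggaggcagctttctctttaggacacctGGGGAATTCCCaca
Tlr3: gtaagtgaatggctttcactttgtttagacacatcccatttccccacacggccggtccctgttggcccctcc
Tlr9: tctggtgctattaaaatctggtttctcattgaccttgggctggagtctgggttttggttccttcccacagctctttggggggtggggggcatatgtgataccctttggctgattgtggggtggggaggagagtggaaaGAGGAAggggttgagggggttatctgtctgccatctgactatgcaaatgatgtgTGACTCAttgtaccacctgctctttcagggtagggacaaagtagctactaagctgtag
Myd88: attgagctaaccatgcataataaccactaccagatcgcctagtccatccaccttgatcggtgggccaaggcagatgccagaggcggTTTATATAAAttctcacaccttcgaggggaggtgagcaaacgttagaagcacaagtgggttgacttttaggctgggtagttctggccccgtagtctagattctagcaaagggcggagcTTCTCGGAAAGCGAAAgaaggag
The Tlr2 stretch lies at chr3:83841768-83841858 on the minus strand, the Tlr3 stretch at chr8:45410381-45410452 on the minus strand, the Tlr9 stretch at chr9:106222348-106222597 on the plus strand and the Myd88 stretch at chr9:119340042-119340268 on the minus strand. The Tlr3 and Myd88 stretches lie within the GENCODE spans of these genes, whose 5′ ends are at 45411080 and 119341411. These stretches are thus upstream of the RefSeq start but downstream of the GENCODE 5′ end, between annotated exons. The capitals in Tlr2 are overlapping matches to the NF-kB motif, the earliest beginning 173 bases before the start. NF-kB matches were found in 2 of the 6 windows, Tlr2 and Tlr3, against 8.46% of all 32851 promoters. That of Tlr3 begins 211 bases before the start and lies in an annotated exon, so it is outside the printed stretch, which holds no searched motif. Tlr9 holds GAGGAA, the core bound by the myeloid factor PU.1, and further on the letters TGANTCA, the motif of AP-1. The PU.1 core was in 3 of the 6 windows (Tlr8, Tlr9 and Tlr13) and in 28.3% of all promoters, and the AP-1 motif in 1 of 6 and 7.81%. Myd88 holds an interferon-stimulated response element (GAAA repeated after any 2 bases), found in 1 of 6 and in 3.44% of all promoters, overlapping a STAT motif (TTCNNNGAA) found in 2 of 6 and 8.3%. Upstream of these it holds the TATA box letters, TATAAA, on both strands and overlapping, which were in 2 of 6 and 13.6%. The CCAAT box was searched as well and was in the Tlr8 window alone, against 37.4% of promoters. These are matches of letters, and factor binding was not measured.

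The level of these genes spanned a wide range within each library, and the co-receptor Cd14 and the receptor Tlr2 stood above all others. Cd14, a membrane-anchored protein that hands lipopolysaccharide to the Tlr4 complex, averaged 2079 ± 509 TPM (SD, n = 10) and lay above 99.5% of tested genes. Tlr2, which recognises bacterial lipoproteins as a partner of Tlr1 or Tlr6, averaged 251 ± 48.6 TPM, above 95.6% of tested genes. Myd88, the shared adaptor, averaged 50.8 ± 3.93 TPM. Tlr13, a receptor for bacterial ribosomal RNA that mice have and humans lack, averaged 28.2 ± 2.46 TPM. Tlr9, the receptor for unmethylated CpG DNA, averaged 23.9 ± 8.02 TPM, and Tlr7, a receptor for single-stranded RNA, 23.8 ± 3.03 TPM. Ly96, or MD-2, which binds the lipid A of lipopolysaccharide beside Tlr4, averaged 15.6 ± 4.02 TPM. Tlr8, a relative of Tlr7 that also binds RNA, averaged 12.4 ± 2.5 TPM, and Tlr4, the lipopolysaccharide receptor, 11.1 ± 2.01 TPM. Tlr3, the receptor for double-stranded RNA, was lowest at 6.97 ± 2.04 TPM, above 36.5% of tested genes.

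**Figure D1:**
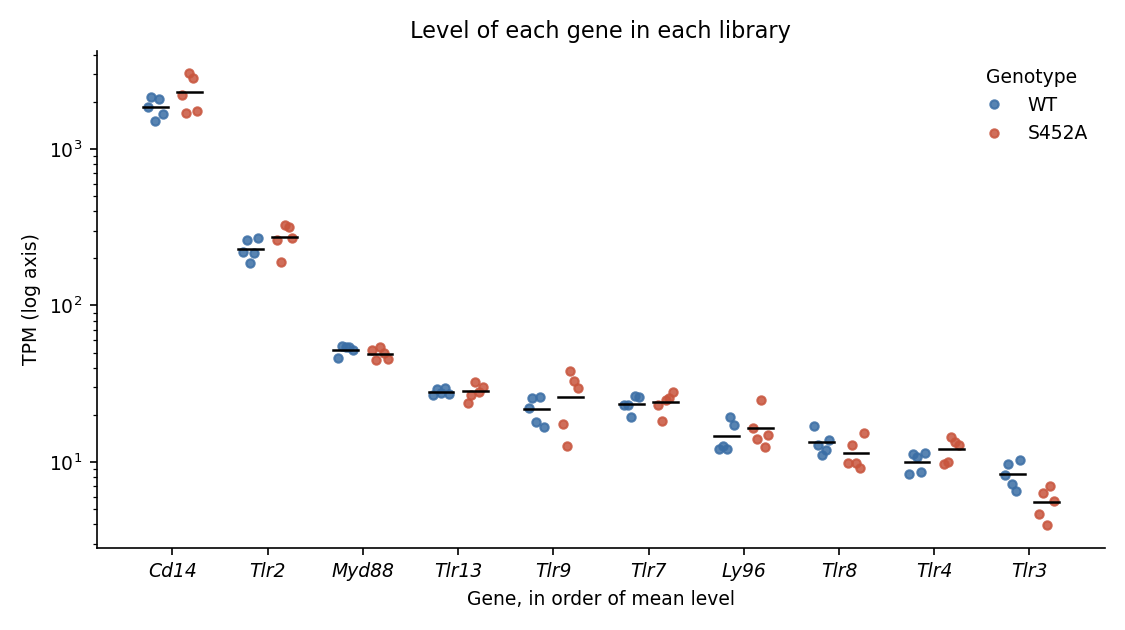
TPM (log axis) of the 10 genes in each library, in order of mean level; points are libraries (5 WT, 5 S452A) and black bars are group means. Cd14 at 1504 to 3033 TPM and Tlr2 at 187 to 325 TPM lie above every other gene in all 10 libraries, and Tlr3 at 3.95 to 10.4 TPM lies lowest.

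Neighbours in this order were set apart only where 1 was higher in all 10 libraries and the mean log2 ratio exceeded its SD. Cd14 was 8.21-fold above Tlr2, Tlr2 4.88-fold above Myd88 and Myd88 1.8-fold above Tlr13, each in 10 of 10 libraries. Tlr13 and Tlr9 were not set apart (Tlr13 higher in 8 libraries), nor were Tlr9 and Tlr7 (Tlr9 higher in 4). Tlr7 was 1.55-fold above Ly96 in 10 of 10 libraries, although both were near 25 TPM in S452A library 3. Ly96 and Tlr8 (7 of 10), and Tlr8 and Tlr4 (8 of 10), were not set apart. Tlr4 was above Tlr3 in 10 of 10 libraries, by 1.2-fold on average in WT and 2.21-fold in S452A. The lipopolysaccharide receptor complex was thus unequal in its transcripts: Cd14 was 133-fold above Ly96 (97.3 to 227 by library), and Ly96 1.39-fold above Tlr4 (9 of 10 libraries).

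Among the 10 genes, the surface receptor transcripts exceeded the endosomal ones in all 10 libraries, through Tlr2 rather than Tlr4. The surface sum here is of Tlr2 and Tlr4 only. The surface receptors Tlr1, Tlr6 and Tlr5 are outside it, at 38.8, 9.36 and 3.5 TPM on average. The endosomal Tlr11 and Tlr12, at 0.141 and 0.919 TPM, are likewise outside the endosomal sum. Tlr2 and Tlr4 together summed to 262 ± 50.2 TPM (SD, n = 10) and the 5 endosomal receptors to 95.3 ± 11.8 TPM. Tlr2 made up 94.5 to 96.4% of the surface sum, and Tlr2 was 22.6-fold above Tlr4 (17.3 to 26.9 by library). Tlr4 alone lay below Tlr7, Tlr9 and Tlr13 in 10 of 10 libraries. The ratio of the sums was 2.33, 2.71, 2.37, 2.23 and 2.97 in WT libraries 1 to 5. It was 3.46, 2.59, 3.09, 3.23 and 2.6 in S452A libraries 1 to 5. The genotypes overlap, with S452A libraries 1, 3 and 4 above every WT library. No p is given for this ratio, since it is a score over chosen genes. The endosomal sum itself was 95.2 ± 7.06 TPM in WT against 95.3 ± 16.2 TPM in S452A (SD, n = 5), and the surface sum 240 ± 35 and 285 ± 56.3 TPM.

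Within the endosomal sum, Tlr13 held the largest mean share (29.8 ± 2.38%, SD, n = 10), followed by Tlr7 at 25.1 ± 2.18%, Tlr9 at 24.6 ± 5.75%, Tlr8 at 13.1 ± 2.81% and Tlr3 at 7.41 ± 2.21%. The share of Tlr13 was 27.3 to 34.7% over all libraries. That of Tlr9 varied most, from 16.5% in S452A library 2 to 34.8% in S452A library 3. The share of Tlr3 was 6.54 to 11% in WT and 3.6 to 8.21% in S452A.

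**Figure D2:**
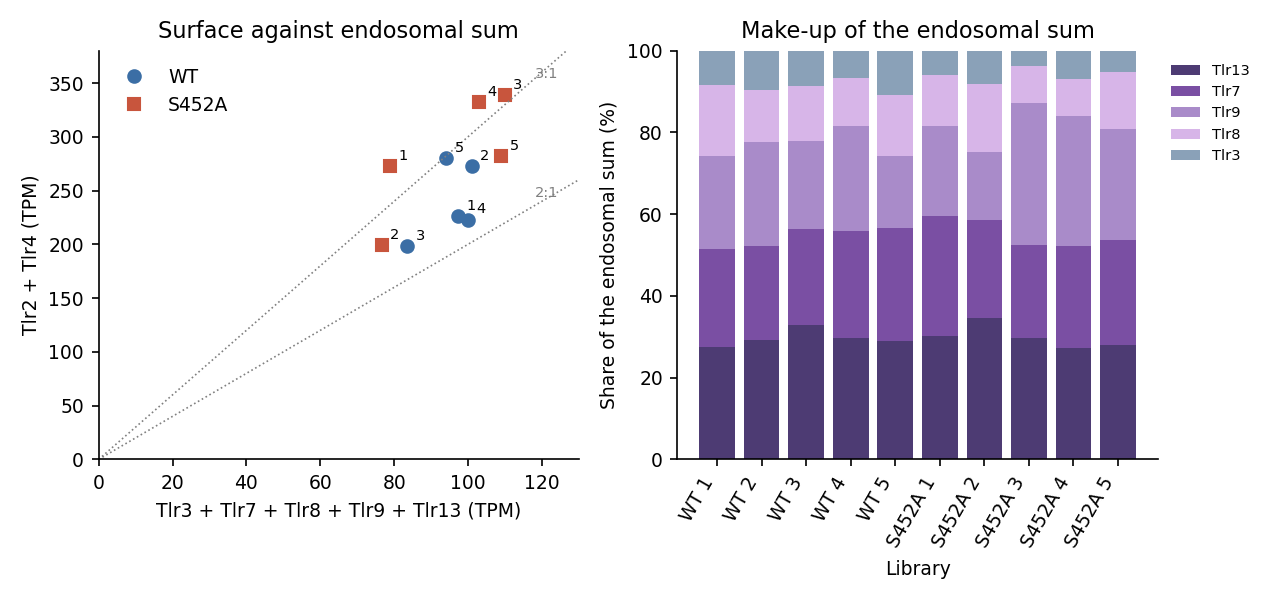
Left, summed TPM of Tlr2 and Tlr4 against that of the 5 endosomal receptors, with library numbers and dotted lines at ratios of 2 and 3; right, the share of each endosomal receptor in the endosomal sum, in percent, per library. All 10 libraries lie above the line at 2, and Tlr9 takes its largest share, 34.8%, in S452A library 3.

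None of the 10 genes passed the test between genotypes, S452A against WT (limma adjusted p at least 0.952 for each). Over all genes there was 1 that passed, 0.00718% of the 13930 tested. At an unadjusted limma p under 0.05 there was 1 of the 10, Tlr3, against 660 genes or 4.74% overall. The genotypes overlapped for all 10 genes, where they did not overlap for 0.646% of tested genes. The difference was above 0 for 6 of the 10 and below 0 for 4, with a median of 0.09 on the log2(TPM + 1) scale, against 46.6% above 0 and a median of -0.02 over all tested genes. With 1 library left out that median was 0.01 (without S452A library 3) to 0.15 (without S452A library 2). For all 10 the 95% interval lay within a 2-fold change of TPM + 1 either way, which is not a 2-fold change of TPM. The log2(TPM + 1) scale, used for every difference below, understates the change of low genes. The smallest p that the exact test allows with 5 against 5 is 0.00794.

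**Figure D3:**
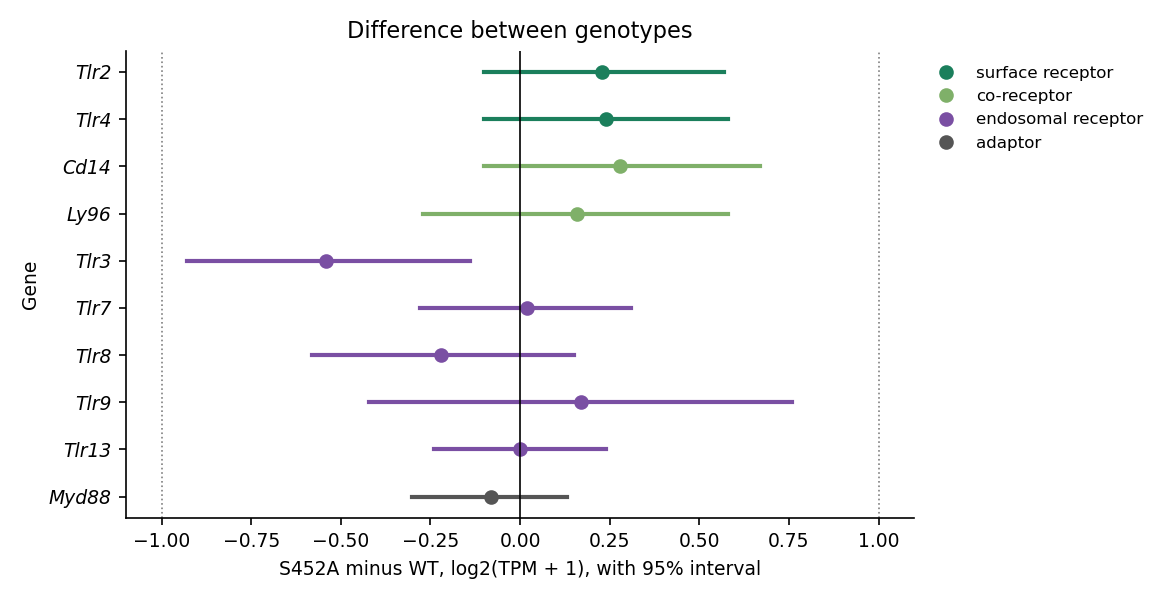
S452A minus WT on the log2(TPM + 1) scale for each gene, with the 95% interval from limma (5 libraries per genotype). Dotted lines mark a 2-fold change of TPM + 1. The interval of Tlr3, -0.93 to -0.14, is the only one of the 10 that leaves out 0, before adjustment.

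Tlr2 was at 218, 261, 187, 215 and 268 TPM in WT libraries 1 to 5. Its S452A libraries were at 263, 189, 325, 318 and 269 TPM. The 3 highest S452A libraries lie above every WT library, while S452A library 2 lies near the lowest WT library. The means were 230 ± 34.2 and 273 ± 54.6 TPM (SD, n = 5), and S452A minus WT was 0.23 on the log2 scale (SE 0.15, 95% interval -0.10 to 0.57, limma adjusted p = 0.952, 2-sided exact permutation p = 0.167). Fibroblast marker values lay the other way: as a mean of log2(TPM + 1) they stood at 3.79 ± 0.29 in WT against 3.29 ± 0.41 in S452A. Their correlation with Tlr2 is given below, and their part in the Tlr2 difference was not tested. The macrophage marker mean stood at 8.65 ± 0.13 and 8.62 ± 0.12. Its r with Tlr2 was 0.618 (permutation p = 0.0577, adjusted p = 0.333), and -0.0245 without the 2 libraries farthest from its median. As deviations from the genotype means r was 0.776 (permutation p = 0.0076, adjusted p = 0.21).

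Tlr4 was at 8.36, 11.2, 10.8, 8.63 and 11.4 TPM in WT libraries 1 to 5. S452A libraries 1 to 5 held 9.78, 10, 14.4, 13.4 and 12.9 TPM. Libraries 3, 4 and 5 of S452A exceeded all WT libraries, and the other two fell within the WT range. S452A minus WT came to 0.24 (SE 0.16, 95% interval -0.10 to 0.58, limma adjusted p = 0.952, exact permutation p = 0.111). Tlr4 is encoded at 66827584 to 66930284 of chromosome 4 (GRCm38, plus strand), and shares no exon base with another annotated gene.

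The co-receptor Cd14 was at 1859, 2142, 1504, 2094 and 1670 TPM in WT libraries 1 to 5, and at 2192, 1705, 3033, 2853 and 1737 TPM in the S452A libraries. S452A libraries 3 and 4 were the highest of all 10, as they were for Tlr2 and Tlr4, and S452A libraries 2 and 5 lay within the WT range. S452A minus WT came to 0.28 (SE 0.18, 95% interval -0.10 to 0.67, limma adjusted p = 0.952, exact permutation p = 0.206). With 1 library left out this difference was 0.17 (without S452A library 3) to 0.38 (without S452A library 2 or 5). Ly96 was at 12.1, 12.7, 12.1, 19.3 and 17.2 TPM in WT and at 16.5, 14.1, 24.8, 12.6 and 15 TPM in S452A. Only S452A library 3 exceeded the WT range, and the log2 difference of 0.16 (SE 0.20) was 0.01 without that library and 0.25 without WT library 4.

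Tlr3 showed the largest difference of the 10. It was at 8.22, 9.73, 7.27, 6.56 and 10.4 TPM in WT libraries 1 to 5. S452A libraries 1 to 5 were at 4.67, 6.3, 3.95, 7.07 and 5.6 TPM. Thus 4 of 5 S452A libraries lay below every WT library, and S452A library 4 lay above WT library 4. Of all tested genes, 2.6% had at least 4 S452A libraries below the WT range. The means were 8.43 ± 1.6 and 5.52 ± 1.25 TPM (SD, n = 5), and S452A minus WT was -0.54 on the log2 scale (SE 0.18, 95% interval -0.93 to -0.14, limma unadjusted p = 0.0119, adjusted p = 0.952, exact permutation p = 0.0159). Leaving out any library kept the difference between -0.62 and -0.44, and none of these fits passed the adjustment. Tlr3 signals through Ticam1 (TRIF) and not through Myd88, and Ticam1 averaged 15.4 ± 1.01 TPM in WT against 16.1 ± 4.33 TPM in S452A. Cross-presenting dendritic cells and fibroblasts are known to hold Tlr3. Of the 8 dendritic cell markers 4 reached 1 TPM on average, and the list summed to 59.6 to 85.1 TPM in WT and 63.9 to 99.1 TPM in S452A. Ccr7 was at 49.9 ± 14.2 and 54 ± 13.4 TPM, and Batf3 at 11.2 ± 5.36 and 14.3 ± 4.97 TPM. Zbtb46 was at 3.53 ± 1.34 and 3.34 ± 1.81 TPM, Xcr1 at 2.61 ± 1.4 and 3.28 ± 1.75 TPM, and Clec9a at no more than 1.64 TPM. The part of dendritic cells in the Tlr3 values was not tested. The fibroblast marker sum averaged 219 TPM in WT and 156 TPM in S452A. The fibroblast marker mean gave r = 0.525 with Tlr3 (permutation p = 0.114, adjusted p = 0.428), and 0.164 without the 2 libraries farthest from its median. As deviations from the genotype means r was 0.117 (permutation p = 0.749, adjusted p = 0.852). The part of fibroblasts in the Tlr3 difference was not tested. Tlr3 is encoded at 45395665 to 45411080 of chromosome 8 (GRCm38, minus strand), and its 1 overlapping gene on the other strand, Gm45542, was listed at 0 in all 10 libraries.

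The 3 receptors encoded on chromosome X gave differences from -0.22 to 0.02, and their genotypes overlapped. In GRCm38 Tlr7 spans 167304929 to 167330558 and Tlr8 167242696 to 167264329, both on the minus strand, and Tlr13 spans 106143204 to 106160493 on the plus strand. Tlr7 was at 23.3, 23.1, 19.5, 26.2 and 25.9 TPM in WT and at 23.2, 18.3, 24.9, 25.8 and 28 TPM in S452A, so that both ranges nearly coincide. Its difference was 0.02 (SE 0.14, 95% interval -0.28 to 0.31). Tlr8, 40599 bases from Tlr7, was at 17, 12.8, 11.1, 11.9 and 13.9 TPM in WT and at 9.88, 12.8, 9.91, 9.17 and 15.3 TPM in S452A. Here S452A libraries 1, 3 and 4 lay below the WT range, and the difference was -0.22 (SE 0.17, 95% interval -0.58 to 0.15, limma adjusted p = 0.952, exact permutation p = 0.19). Leaving out WT library 1, the highest, gave -0.13. Tlr13 was at 26.7, 29.4, 27.6, 29.8 and 27.3 TPM in WT and at 23.7, 26.6, 32.7, 28.1 and 30.3 TPM in S452A. Its WT libraries lay inside the S452A range, with a log2 difference of 0.00 (SE 0.11, 95% interval -0.24 to 0.24). Xist, expressed from the inactive X chromosome, averaged 61.1 ± 6.03 TPM in WT against 63 ± 13.3 TPM in S452A. The Y-linked genes Ddx3y, Uty and Eif2s3y were listed at 0 in every library, and Kdm5d reached at most 0.07 TPM, in S452A.

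Tlr9 varied most from mouse to mouse. It was at 22.2, 25.7, 18.1, 25.8 and 16.7 TPM in WT libraries 1 to 5. The S452A libraries were at 17.4, 12.7, 38.2, 32.8 and 29.5 TPM. S452A libraries 3, 4 and 5 lie above the WT range and S452A library 2 below it. Tlr9 had a coefficient of variation of 33.6% over 10 libraries, against 8.72% for Tlr13 and 7.75% for Myd88. Its difference was 0.17 (SE 0.27, 95% interval -0.42 to 0.76, limma adjusted p = 0.962, exact permutation p = 0.587), and with 1 library left out it was 0.01 (without S452A library 3) to 0.39 (without S452A library 2). Plasmacytoid dendritic cells and B cells are known for Tlr9. Of 7 markers of the former, 3 reached 1 TPM on average. These were Bst2, an interferon-induced gene that other cells express too, which averaged 950 ± 81.4 TPM in WT against 868 ± 133 TPM in S452A, Tcf4 at 31.6 ± 8.15 and 34.6 ± 5.06 TPM, and Cox6a2 at 6.45 ± 2.85 and 5.08 ± 2.37 TPM. The list summed to 897 to 1087 TPM in WT and 680 to 1026 TPM in S452A. Siglech reached at most 0.55 TPM, Ccr9 0.88 TPM and Pacsin1 1.51 TPM, and Klk1 was listed at 0. The part of these cells in the Tlr9 values was not tested. Of the 6 B cell markers only Cd79b reached 1 TPM on average, and Ms4a1 reached at most 1.41 TPM. Tlr9 is encoded at 106222598 to 106226883 of chromosome 9 (GRCm38, plus strand).

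Myd88 was the steadiest of the 10. It was at 46.1, 55.1, 54, 54.3 and 51.7 TPM in WT and at 51.8, 44.8, 54.3, 49.6 and 45.8 TPM in S452A. S452A libraries 2 and 5 lay just below the lowest WT library. S452A minus WT came to -0.08 (SE 0.10, 95% interval -0.30 to 0.13, limma adjusted p = 0.958), and with 1 library left out it was -0.13 (without WT library 1) to -0.05 (without S452A library 2). Its exons overlap those of Acaa1a on the other strand, which averaged 54.5 ± 7.5 TPM in WT against 46.3 ± 3.86 TPM in S452A. The kit marked strand, but whether the counting used it is not given in the sources used here, so reads of these genes may be shared.

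No pair of genes passed as correlated over the 10 libraries. Of 75 relations, 45 between the 10 genes and 30 with the T cell, macrophage and fibroblast marker means, 0 passed by Pearson's r or Spearman's rho after Benjamini-Hochberg adjustment, and 12 had an unadjusted permutation p under 0.05 for r. Tlr2 and Cd14 gave r = 0.768 (permutation p = 0.0097, adjusted p = 0.247) and rho = 0.636 (permutation p = 0.0537, adjusted p = 0.645), with r = 0.654 without the 2 libraries farthest from the median of Tlr2. Tlr9 and Tlr13 gave r = 0.748 (permutation p = 0.0116, adjusted p = 0.247) and rho = 0.842 (permutation p = 0.00387, adjusted p = 0.145), with r = 0.672 without the 2 farthest. Tlr2 and Tlr4 gave r = 0.73 (permutation p = 0.0178, adjusted p = 0.247) and rho = 0.758 (permutation p = 0.0146, adjusted p = 0.364), with r = 0.934 without the 2 farthest. For Tlr2 and Tlr7, r = 0.697 (permutation p = 0.025, adjusted p = 0.247) and rho = 0.564 (permutation p = 0.0968, adjusted p = 0.674), but r was 0.162 without the 2 farthest, WT library 3 and S452A library 2, so the relation rests on them. The fibroblast marker mean and Tlr2 gave r = -0.773 (permutation p = 0.00471, adjusted p = 0.247) and rho = -0.903 (permutation p = 0.00077, adjusted p = 0.0577), with r = -0.573 without the 2 farthest. As deviations from the genotype means these r were 0.711, 0.762, 0.654, 0.75 and -0.711 in that order. The remaining relations under 0.05 were Tlr9 with Cd14 (r = 0.725), Tlr2 with Tlr9 (0.705), Tlr7 with Tlr9 (0.678) and Tlr8 with Cd14 (-0.637). To these come the fibroblast mean with Tlr4 (-0.676) and Cd14 (-0.634), and the macrophage mean with Tlr7 (0.654). Without the 2 farthest, fibroblast with Cd14 was 0.103 and macrophage with Tlr7 -0.407, and the others kept their sign.

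Genes near to each receptor in pattern are given as a description, from at least 6728 tested genes averaging 10 TPM or more, over the same 10 libraries. The nearest to Tlr2 was Ankrd28 (Pearson r = 0.915), to Tlr4 Slain2 (0.934), to Cd14 Lrrfip1 (0.971) and to Ly96 Cstb (0.871). For Tlr3, Mis18a (0.933) stood at rank 2 and the mitochondrially encoded mt-Co1 (0.918) at rank 3. The nearest to Tlr7 was Gpr183 (0.865), to Tlr8 Tle1 (0.959), to Tlr9 Msl2 (0.971), to Tlr13 Kdm6a (0.944) and to Myd88 Zdhhc6 (0.885). Of the compared genes, 56 had r above 0.9 with Tlr9 and 54 with Cd14, against at most 10 for each of the other 8.

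Among 84 other genes of the system, in 6 lists, 81 were tested and 0 passed in either direction (smallest limma adjusted p = 0.931). At an unadjusted p under 0.05 there were 3, against 4.74% of all tested genes, and the genotypes did not overlap for 1, against 0.646%. The difference was above 0 for 62, against 46.6% of all tested genes, and the median was 0.14, against -0.02. Genes of a list were measured in the same 10 mice, so their signs are not independent. The lists were also chosen with earlier results of these data known. Their counts and medians, here and below, are therefore a description and not a test.

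Of the other receptors, 2 of the 4 tested had a difference above 0 and the list median was 0.13 (0.05 without WT library 1, 0.21 without S452A library 4). Tlr1, the partner of Tlr2 for triacylated lipopeptides, averaged 38.8 ± 5.39 TPM in WT against 38.8 ± 8.15 TPM in S452A. Tlr6, its partner for diacylated ones, was at 8.42 ± 3.38 and 10.3 ± 1.85 TPM (log2 difference 0.33, SE 0.25). Tlr5, the flagellin receptor, was at 3.09 ± 0.594 and 3.91 ± 0.629 TPM (0.26, SE 0.18), Tlr12 averaged under 1 TPM, and Tlr11 was not tested. Tlr2 thus exceeded both of its partners in mean level.

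Receptor partners were spread about 0, with 5 of 10 tested genes above 0 and a median of 0.00. Hsp90b1, the chaperone gp96 that folds most of these receptors, averaged 320 ± 26.9 TPM in WT against 320 ± 38.2 TPM in S452A. Unc93b1, which carries the endosomal receptors from the endoplasmic reticulum, was at 217 ± 28.7 and 195 ± 23.2 TPM (log2 difference -0.15, SE 0.11). Ly86, or MD-1, which pairs with the receptor-like Cd180, was at 210 ± 30.3 and 183 ± 34.5 TPM (-0.21, SE 0.14). Ap3b1, of an adaptor complex in endosomal sorting, differed by 0.13 (SE 0.13).

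Proximal signalling genes lay above 0 for 13 of 19, with a median of 0.08. Leaving out S452A library 4 gave a median of 0.01 and leaving out S452A library 2 gave 0.17. Tab1, a partner of the kinase Tak1, averaged 8.25 ± 1.19 TPM in WT against 4.93 ± 1.05 TPM in S452A, without overlap of the genotypes (6.76 to 9.73 against 3.63 to 6.02 TPM). Its log2 difference was -0.65 (SE 0.17, limma unadjusted p = 0.00234, adjusted p = 0.931). The kinases Irak4 and Irak1, recruited to Myd88, differed by -0.36 (SE 0.19) and -0.24 (SE 0.13). Irak2 was the highest of the list at 129 ± 18.2 and 166 ± 53.6 TPM (0.31, SE 0.21), followed by the adaptor gene Pik3ap1 at 0.03 and the kinase gene Ikbke at 0.24.

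Transcription factors were above 0 for 7 of 10, with a median of 0.06. Nfkb1 averaged 88.8 ± 12.6 TPM in WT against 114 ± 31.7 TPM in S452A (log2 difference 0.33, SE 0.18). Irf7, which drives interferon genes downstream of Tlr7 and Tlr9, was the highest of the list at 614 ± 58.9 and 596 ± 142 TPM, and Irf1 differed by 0.07. Irf3, the factor downstream of Tlr3, and Irf8, a factor of myeloid cells, both differed by -0.23. Without S452A library 3 the list had 5 of 10 above 0 and a median of -0.03.

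Negative regulators were above 0 for 13 of 13 tested genes, against 46.6% of all tested genes. Their median was 0.22, and none passed the test. Nfkbia, the NF-kB inhibitor, averaged 1361 ± 224 TPM in WT against 1659 ± 381 TPM in S452A (log2 difference 0.27, SE 0.16). Tnfaip3, or A20, was at 315 ± 63.4 and 438 ± 145 TPM (0.43, SE 0.22), and Dusp1, a phosphatase of MAP kinases, at 657 ± 106 and 791 ± 197 TPM (0.24, SE 0.17). Sigirr, a receptor that dampens this signalling, was at 3.18 ± 1.25 and 4.3 ± 0.415 TPM (0.40, SE 0.22). Without S452A library 3 or 4 the median was 0.08 or 0.10, with 11 of 13 above 0, and without S452A library 2 it was 0.33. S452A library 3 also held the lowest fibroblast marker mean (2.61) and the highest T cell marker mean (3.76, both as log2(TPM + 1)). The T cell marker mean hardly differed between genotypes (2.5 ± 0.91 in WT, 2.55 ± 0.88 in S452A). As a covariate it could therefore move these differences little: 13 of 13 were above 0 and the median was 0.21. With the macrophage marker mean as a covariate, 13 of 13 were above 0 and the median was 0.25. The part of the fibroblast marker mean in these values was not tested.

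Response genes, cytokines and other products known to follow receptor activation, were above 0 for 22 of 25, against 46.6% of all tested genes. Their median was 0.30, and none passed. That median was 0.15 without WT library 1 and 0.47 without S452A library 5, with 20 and 23 of 25 above 0. Cd80, a costimulatory ligand, averaged 13.6 ± 3.43 TPM in WT against 21.8 ± 4.17 TPM in S452A (log2 difference 0.66, SE 0.19, limma unadjusted p = 0.00388, adjusted p = 0.952). Ifnb1, the type I interferon gene, was at 103 ± 29.5 and 165 ± 67 TPM (0.64, SE 0.26, limma unadjusted p = 0.0319, adjusted p = 0.952). Il1a, the alpha form of interleukin 1, differed by 0.68 (SE 0.32), with means of 216 ± 66.3 and 363 ± 149 TPM. The most abundant were Cxcl2 at 3109 ± 1036 and 4222 ± 1762 TPM, Il1b at 3134 ± 537 and 3983 ± 954 TPM and Ccl4 at 1910 ± 432 and 2403 ± 819 TPM. Their log2 differences were 0.39, 0.33 and 0.30.

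**Figure D4:**
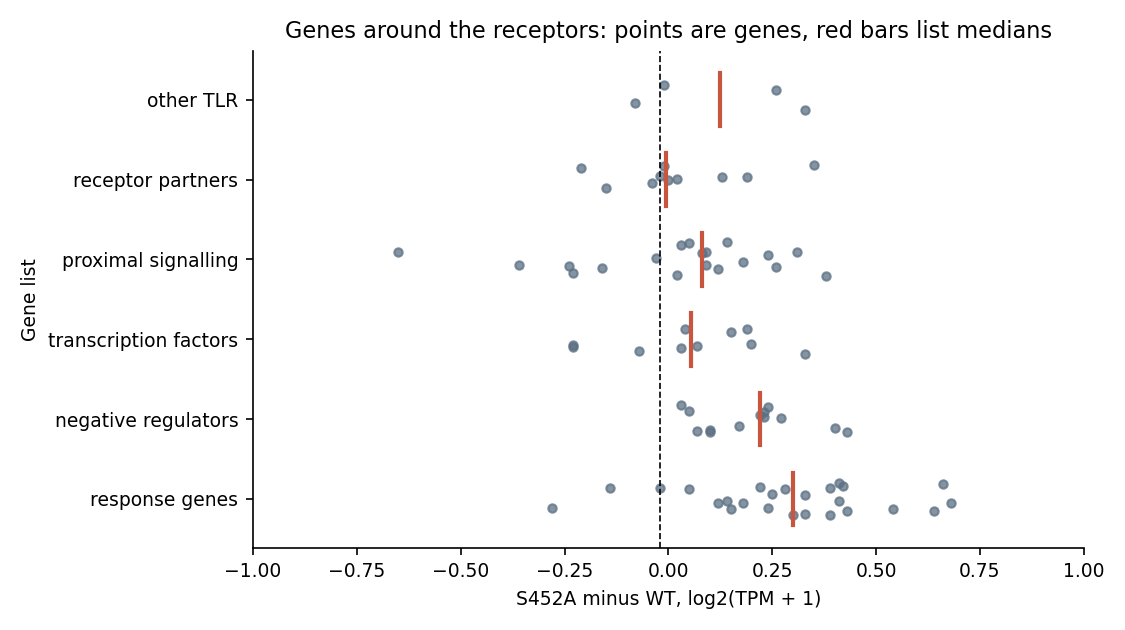
S452A minus WT on the log2(TPM + 1) scale for the 81 tested genes of 6 lists; points are genes, red bars list medians, and the dashed line the median of all tested genes (-0.02). All 13 points of the negative regulators lie above 0, around a median of 0.22, and the receptor partners lie around 0. The lists were chosen with earlier results of these data known.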

How the data were processed

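MC38 tumours of 5 WT and 5 S452A mice were sorted for CD8+ T cells, and the RNA was made into directional libraries from 40 ng of RNA, per the labels' protocols. STAR 2.7.9a, RSEM 1.3.0 and build GRCm38.p6 are named in the submitters' processing notes. The authors deposited TPM values, scaled to transcript length and to 1000000 per library, so counts and depth are unknown and a lower level of some genes raises the TPM of others. Columns were matched to mice through the sample descriptions. The members and gene lists were chosen with earlier results of these data known.

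The 13930 genes that reached 1 TPM in 5 or more libraries (99.6% of TPM) were analysed as log2(TPM + 1) with limma 3.58.1 (R 4.3.3, eBayes with trend, genotype only, 2-sided, Benjamini-Hochberg adjusted over all tested genes, threshold 0.05). The labels number separate mice. Exact permutation tests used scipy 1.17.1, and permutation tests of correlations with 100000 resamples used numpy 2.4.6. Both were 2-sided. Named are the 10 members and, per list, the 3 genes of smallest unadjusted p and the 3 of highest mean TPM. For likeness 3 genes per member were ranked, of which the nearest is printed; for Tlr3 the genes ranked 2 and 3 are printed, that ranked 1 is not reported here, and mt-Co1 was first chosen after its value was seen. All 10 members matched GENCODE M21 (GRCm38), and blastn 2.17.0 found near-identical copies (95% identity over 0.8 of the shorter transcript) for 0 of them. The fit was tested on simulated data in which genes varied independently and shifts were larger than the differences of the genes named here. That test therefore does not show how often differences of this size would pass. Alternatives were other pseudocounts, filters, scalings, covariates and moderation, each library left out, and the mouse number as a block.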

Additional observations from a re-analysis of the deposited data

How the results depend on the processing

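In all 21 alternative fits 0 of the 10 members and 0 of the pathway genes that each fit tested passed (limma, Benjamini-Hochberg adjusted). The pathway genes tested were 81 in the fit reported and 84 with no filter beyond a value above 0. The number passing over all genes was 1 in each fit except that restricted to genes with 1 TPM in all 10 libraries, where it was 0. The count at an unadjusted p under 0.05 was 660, 492 to 942 with 1 library left out, and 1080 with no filter beyond a value above 0, a fit of 27444 genes. For Tlr2, Tlr3, Tlr4, Tlr8, Tlr9, Cd14, Ly96 and Myd88 the sign of the difference was the same in all 21 fits. For Tlr7 it was -0.05 to 0.11 with 1 library left out, below 0 without WT library 3 (-0.05) and S452A libraries 4 (-0.01) and 5 (-0.04). Tlr13, at 0.00 with all libraries, was -0.05 to 0.06 with 1 library left out, and turned sign at 0.01 and 0.02 without WT libraries 2 and 4, at 0.06 and 0.02 without S452A libraries 1 and 2, and at 0.00 with a pseudocount of 5 or quantile normalization. Tlr2 was 0.36 without S452A library 2 (unadjusted p = 0.0162, adjusted p at least 0.73 in every fit), and Cd14 was 0.38 without it (unadjusted p = 0.0487, adjusted p = 0.732). With the macrophage marker mean as a covariate Tlr2 was 0.29 (limma unadjusted p = 0.0289, adjusted p = 0.92).

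The mouse numbers do not pair the libraries: deviations of same-numbered libraries from their group means had a correlation of -0.148 to 0.074. With the replicate block 0 members passed, and 613 genes had an unadjusted p under 0.05.

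The surface to endosomal log2 ratio, 1.45 ± 0.22 (SD, n = 10), moved by less than 1 SD with Tlr4 left out, with means of log2 values and without any library. In the order of levels 2 members changed place with medians (Tlr7 and Tlr9), with WT alone (the same pair) and with S452A alone (2, Tlr4 and Tlr8). The depth is unknown, so no counting error can be given.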
